A study of Mus musculus with 6 samples.

Results

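The 39 Hox genes are the homeobox genes of the Hoxa, Hoxb, Hoxc and Hoxd clusters, taken from the 43629 genes of the count table by the form of their symbol (Hox, a cluster letter and a paralogue number, which leaves out the antisense transcripts). The Hoxa cluster held 11 members, Hoxb 10, Hoxc 9 and Hoxd 9. Their messenger RNA was measured in epidermal keratinocytes that were isolated at P3 (day 3 after birth) and cultured for 5 days (the time in the labels and methods; a legend of the study gives a shorter one), in 3 control and 3 Dnmt1Δ/Δep libraries. In Dnmt1Δ/Δep mice the floxed alleles of Dnmt1, which encodes the maintenance DNA methyltransferase, are removed by Cre under the Keratin 5 promoter from mid-gestation onwards, so that other cell types of the skin keep the gene unless they descend from cells that used this promoter. Controls carried no Cre and 1 or 2 floxed alleles (the labels do not say which). All mice were female on a mixed C57BL/6J and 129SV background, and both groups were grown in the same low-calcium medium. The labels name 3 mice and 3 libraries in each group without tying each library to its own mouse, so p-values measure the spread between these libraries.

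Hox genes encode transcription factors that give cells their position along the head-to-tail axis and along the limbs. Within a cluster the genes lie in the order in which they are used along the body, from the anterior genes with low paralogue numbers to the posterior genes with high ones, and skin cells keep such a code after birth. Polycomb proteins hold unused Hox genes silent, and many Hox promoters lie in CpG islands that are largely free of DNA methylation.

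Dnmt1 itself was at 394, 379 and 324 CPM (normalized counts scaled by library size) in the control libraries and at 49.7, 54.3 and 50.7 CPM in the Dnmt1Δ/Δep libraries; the labels of all 6 libraries match these levels. Its log2 fold change (Dnmt1Δ/Δep over control) was −2.83 with a standard error of 0.11 (adjusted p = 8.1e-05, edgeR's quasi-likelihood test). The libraries held between 53433121 and 115526598 reads on genes, of which 12365 to 27226 fell on Hox genes. The 12 keratinocyte markers summed to 36415 to 39826 CPM in control and to 27430 to 28221 CPM in Dnmt1Δ/Δep libraries. The 11 leukocyte genes found summed to 24.5 to 58.6 CPM in control and to 95.5 to 135 CPM in Dnmt1Δ/Δep libraries, most of it from S100a8, which stressed keratinocytes also express. Of their defining markers Cd3g had no read, Cd207 had 1 read at most and Ptprc 12 at most, while Csf1r and Itgam were called higher. Other cell types left measurable transcripts, and their values are given beside the results they move with.

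In control keratinocytes the Hox code was broad and central. Levels are given as RPKM, reads per length of exon and normalized library size, a unit that allows genes of different length to be compared. Of the 39 Hox genes, 25 had a mean of at least 1 RPKM in control. The whole family summed to 98.8, 99.5 and 92.8 RPKM in control replicates 1, 2 and 3. Hoxa held the largest part of this level, with 37.1% ± 1.33 (SD, n = 3), followed by Hoxb with 29.5% ± 2.19, Hoxc with 23.6% ± 1.15 and Hoxd with 9.93% ± 1.94.

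Paralogues 5 to 8, which pattern the trunk, made up 48.8% ± 2.75 of the control level. Paralogues 1 to 4, the hindbrain and neck genes, gave 26.8% ± 2.08, and paralogues 9 to 13, the lumbar, tail and limb genes, gave 24.5% ± 1.88. The posterior share differed between clusters: it was 12.8% ± 2.09 of the Hoxa level, 21.6% ± 3.96 of Hoxb, 31.1% ± 1.12 of Hoxc and 60.8% ± 2.22 of Hoxd. These shares describe the levels and carry no test.

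**Figure D1:**
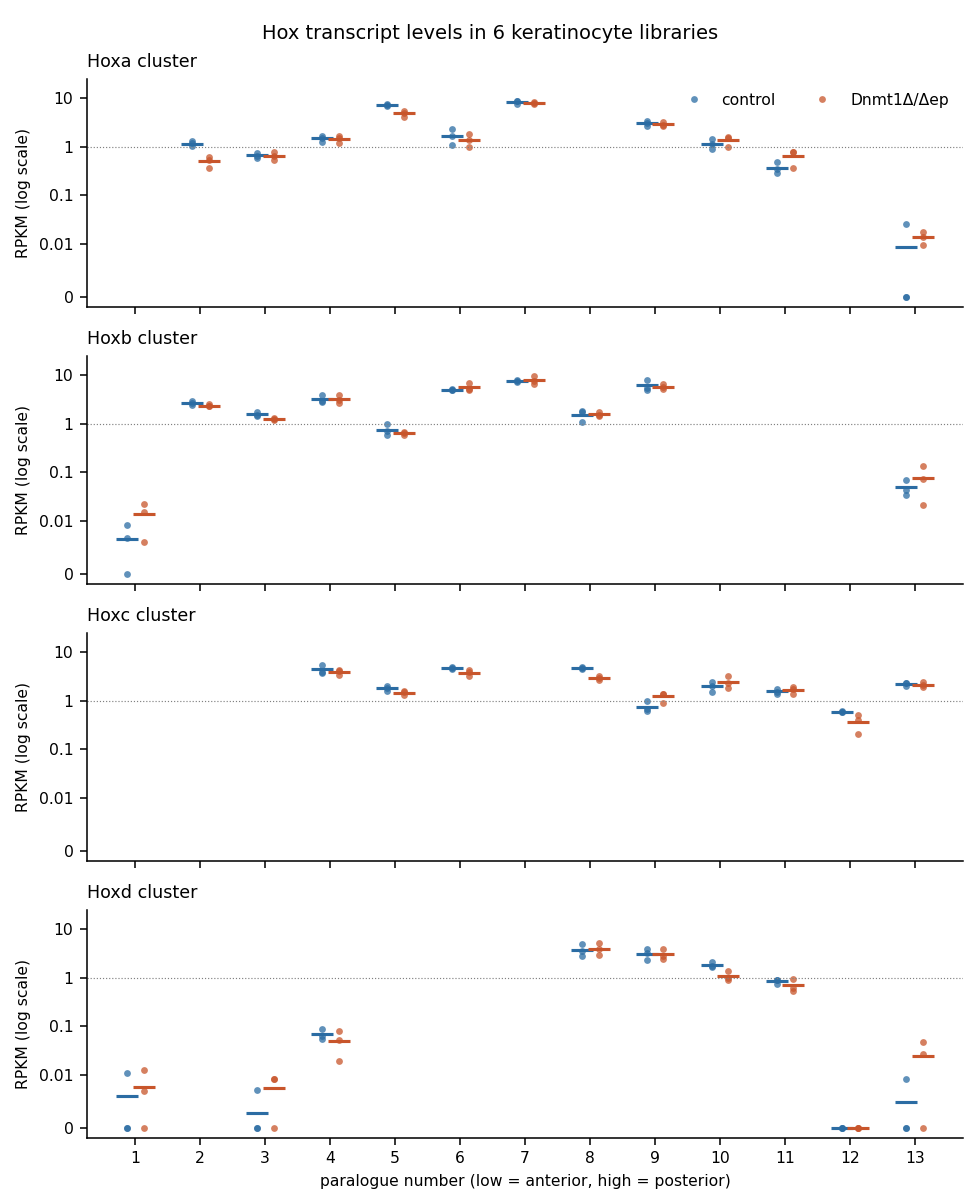
RPKM of Hox genes on a log scale (zeros drawn on the lowest line) against its paralogue number, with a panel for each cluster; points are the 3 libraries of a group and short bars their means. Genes of the middle of each cluster lie mostly above the dotted line at 1 RPKM, while Hoxa13, Hoxb1, Hoxd1, Hoxd3, Hoxd12 and Hoxd13 lie at or near 0.

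Central genes stood high in several clusters. Hoxa7, which acts in the thoracic trunk, was at 7.50, 8.93 and 8.93 RPKM in control replicates 1, 2 and 3. Below it came Hoxb7 (mean 7.54 ± 0.44 RPKM, SD, n = 3), Hoxa5 (7.22 ± 0.38), Hoxb9 (6.18 ± 1.68) and Hoxb6 (5.06 ± 0.12). Hoxc8 (4.78 ± 0.29), Hoxc6 (4.70 ± 0.21), Hoxc4 (4.42 ± 0.94) and Hoxd8 (3.74 ± 1.04) followed. The order of these 9 genes was not resolved by the libraries, since the control ranges overlapped in all 8 pairs of neighbours. All of them but Hoxc4 and Hoxb9 belong to paralogues 5 to 8.

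Within Hoxd the level came almost wholly from paralogues 8 to 11. Hoxd8 was the leading gene of this cluster in all 6 libraries and Hoxd9 the second. Hoxd4 had a mean of only 0.068 ± 0.016 RPKM in control. Hoxd1 was at 0, 2 and 0 counts in control and Hoxd3 at 0, 2 and 0, and no read fell on Hoxd12 in any of the 6 libraries. At 3 counts, the limit that a count of 0 allows, a gene would have reached 0.0254 to 0.0558 CPM depending on the library, which covers counting error only.

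The terminal genes did not share one level. Hoxc13, required for hair and nail keratins, was at 2.02, 2.34 and 2.31 RPKM in control, and its neighbour Hoxc12 at 0.62, 0.58 and 0.58 RPKM. Hoxa13, a gene of the distal limb and genital tract, was at 0, 6 and 0 counts in control and Hoxd13 at 0, 2 and 0. Hoxb13, known from the tail and prostate, had 9, 15 and 4 counts. Hoxc13 was thus the only gene of its paralogue group whose mean reached 1 RPKM.

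The Dnmt1Δ/Δep keratinocytes kept this profile in its main outline, with a lower summed level. The whole family summed to 87.0, 84.0 and 91.7 RPKM in Dnmt1Δ/Δep replicates 1, 2 and 3, each below the lowest control. Counted as reads without division by gene length the groups overlapped, with 249, 248 and 230.2 CPM over all Hox genes in control and 216, 210 and 230.8 CPM in Dnmt1Δ/Δep libraries. The sum of Hoxa lay without overlap between the groups: it came to 35.7, 36.3 and 35.8 RPKM in control and to 27.3, 31.2 and 31.8 RPKM in Dnmt1Δ/Δep libraries. Hoxb was at 28.6 ± 2.42 RPKM in control and 28.6 ± 3.08 in Dnmt1Δ/Δep, Hoxc at 22.9 ± 1.39 and 20.0 ± 1.61, and Hoxd at 9.67 ± 2.15 and 8.88 ± 2.36 (SD, n = 3). The ranges of Hoxb, Hoxc and Hoxd overlapped between the groups. In bulk RNA, fewer cells that express a gene and less RNA per cell cannot be told apart.

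The share of paralogues 9 to 13 amounted to 24.5% ± 1.88 (control) and 26.8% ± 3.74 (Dnmt1Δ/Δep), a difference within the spread of the libraries. Within Hoxc that share was 31.8%, 31.6% and 29.8% in control against 41.3%, 33.1% and 43.4% in Dnmt1Δ/Δep libraries, so that the groups did not overlap. Within Hoxd it moved the other way, from 58.3%, 62.0% and 62.2% to 53.1%, 56.2% and 54.3%. The groups overlapped for Hoxa, with means of 12.8% in control and 16.5% in Dnmt1Δ/Δep. They also overlapped for Hoxb, with 21.6% and 20.8%. These are sums over genes and have no test. Over the 33 genes that were tested, Pearson's r between the group means of log2 RPKM was 0.972, a description across genes that are not independent replicates. Pairs of control libraries had r from 0.972 to 0.987, pairs of Dnmt1Δ/Δep libraries from 0.960 to 0.977, and a control with a Dnmt1Δ/Δep library from 0.918 to 0.974.

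Of the 39 Hox genes, 33 had enough counts to be tested, and Hoxa13, Hoxb1, Hoxd1, Hoxd3, Hoxd12 and Hoxd13 did not. Calls required an adjusted p no higher than 0.05 together with a log2 fold change of 1 or more in either direction. Among the tested Hox genes 1 was called lower in Dnmt1Δ/Δep cells, Hoxa2, beside 66 of the 16829 genes tested (0.392%). None was called higher, where 1014 of all tested genes (6.03%) were. At an unadjusted p under 0.05, 5 Hox genes were lower and 1 was higher (Hoxc9), where 7.79% of all tested genes were lower, 15.8% higher and 23.6% either. DESeq2 also called 0 Hox genes higher. By adjusted p alone 2 Hox genes were lower, Hoxa2 and Hoxc8, against a background of 1.66%, and 0 were higher, against 7.71%.

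The changes of most members were small. The median log2 fold change of the 33 tested Hox genes was −0.09 and that of all tested genes −0.0009. For 24 of the 33 the 95% interval of the log2 fold change lay wholly between −1 and 1. The same held for 10330 of all 16829 tested genes. In 8 of 33 (24.2%) every Dnmt1Δ/Δep library lay below every control library, and in 0 did every Dnmt1Δ/Δep library lie above. Over all tested genes those shares were 11.7% and 18.2%. Among these 8 were Hoxa2, Hoxa5, Hoxb3, Hoxc6, Hoxc8, Hoxc12 and Hoxd10.

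**Figure D2:**
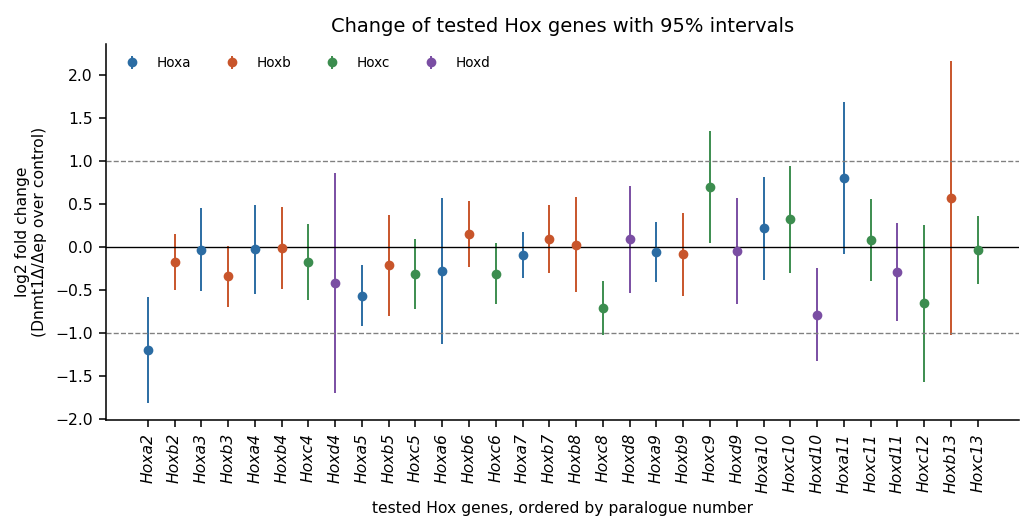
Log2 fold change (Dnmt1Δ/Δep over control) of tested Hox genes with 95% intervals, ordered by paralogue number and coloured by cluster; dashed lines mark a log2 fold change of 1 in either direction. Hoxa2 lies beyond the lower line at −1.19, and no gene lies beyond the upper one.

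By paralogue number, the 9 tested genes of paralogues 1 to 4 all had a log2 fold change below 0, from −1.19 for Hoxa2 to −0.01 for Hoxb4, with a median of −0.18. For Hoxa3, Hoxa4, Hoxb4 and Hoxc4 the sign turned when a single library was left out. Of the 11 genes of paralogues 5 to 8, 7 were below 0 and the median was −0.21, with Hoxb8, at 0.02, changing sign under RLE factors. Of the 13 tested genes of paralogues 9 to 13, 7 were below 0 and 6 above, with a median of −0.04. By cluster the medians were −0.08 for Hoxa, −0.01 for Hoxb, −0.18 for Hoxc and −0.29 for Hoxd, where all tested genes gave −0.0009.

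Hoxa2, which specifies the second branchial arch and the anterior hindbrain, was the only member past both thresholds. It was at 1.01, 1.16 and 1.28 RPKM (170, 201 and 122 reads) in control replicates 1, 2 and 3 and at 0.369, 0.528 and 0.602 RPKM (39, 81 and 126 reads) in Dnmt1Δ/Δep replicates 1, 2 and 3. The lowest control was well above the highest Dnmt1Δ/Δep library. The log2 fold change was −1.19 with a standard error of 0.26 (adjusted p = 0.033, edgeR). Libraries of one replicate number shared a sequencing lane, and within the lanes the log2 ratios were −1.46, −1.14 and −1.09. When single libraries were left out the log2 fold change stayed between −1.35 and −1.02, but the adjusted p ranged from 0.029 to 0.117 and the call held in 1 of 6 such fits, that without control replicate 1. Of the exons of Hoxa2, 15% overlap another annotated gene, and reads there may not have been counted.

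Hoxc8, a gene of the thoracic trunk, was at 5.07, 4.77 and 4.50 RPKM in control and at 2.67, 2.90 and 3.2 RPKM in Dnmt1Δ/Δep libraries. The groups lay far apart in relation to their spread. The log2 fold change was −0.71 with a standard error of 0.13 (adjusted p = 0.019), short of the fold threshold. Leaving out single libraries gave log2 fold changes from −0.78 to −0.65 with adjusted p from 0.025 to 0.085, above 0.05 without control replicate 2 or Dnmt1Δ/Δep replicate 1 or 2.

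Hoxa5, which acts in the trunk and lung, and Hoxd10, a gene of the lumbar spinal cord and limb, were also lower in every Dnmt1Δ/Δep library without passing the adjusted p. Hoxa5 was at 6.80, 7.33 and 7.53 RPKM in control and 4.14, 5.55 and 4.93 RPKM in Dnmt1Δ/Δep libraries (log2 fold change −0.57, standard error 0.15, adjusted p = 0.059). Its adjusted p was 0.038 with the replicate number as a block and 0.0089 with DESeq2. With single libraries left out it ran from 0.049 to 0.19 (edgeR), and 1 of 6 such fits passed. Hoxd10 was at 2.15, 1.77 and 1.69 RPKM in control and 0.988, 0.904 and 1.35 RPKM in Dnmt1Δ/Δep libraries (log2 fold change −0.79, standard error 0.23, adjusted p = 0.080, and 0.0091 with DESeq2). With single libraries left out the adjusted p of Hoxd10 ran from 0.075 to 0.24 (edgeR), and 0 of 6 such fits passed.

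The other members without overlap differed less or rested on fewer reads. Hoxc6 and Hoxb3 had log2 fold changes of −0.31 and −0.34, and 52.9% of the exons of Hoxb3 overlap the antisense gene Hoxb3os, so its reads are uncertain. Hoxc12 was at 0.407, 0.202 and 0.510 RPKM in Dnmt1Δ/Δep libraries, from 18 to 62 reads.

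**Figure D3:**
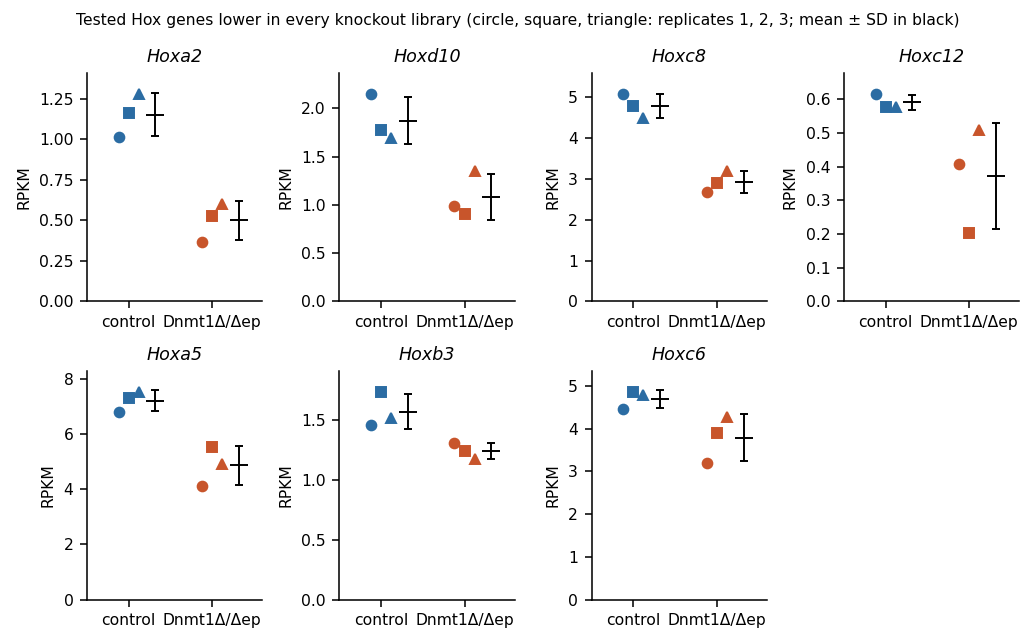
RPKM per library of tested Hox genes for which every Dnmt1Δ/Δep library lay below every control library, ordered by log2 fold change; black bars give the mean and SD of 3 libraries, and each axis starts at 0. The gap between the groups is wide for Hoxa2 (1.01 to 1.28 against 0.369 to 0.602 RPKM) and narrow for Hoxb3 and Hoxc6.

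Promoter sequence was read for some of the members on which these results turn, because Dnmt1 maintains methylation at CpG dinucleotides. Methylation itself was not measured in these samples. RefSeq windows on GRCm38.p6, from 250 bases before to 50 after the start of a gene, were found for 22 of the 39 Hox genes. These 24 windows (Hoxa10 and Hoxd11 have 2 each) held a median of 14.5 CpG, from 4 to 45, and all 32851 windows of the same length held a median of 7. No window was found for Hoxc8. The sequences run 5′ to 3′ along the gene, with each CpG in capitals. Shown are Hoxa2, which was called, Hoxa5 and Hoxd10, which were lower in every Dnmt1Δ/Δep library, and Hoxa13, which was next to silent in both groups.
Hoxa2: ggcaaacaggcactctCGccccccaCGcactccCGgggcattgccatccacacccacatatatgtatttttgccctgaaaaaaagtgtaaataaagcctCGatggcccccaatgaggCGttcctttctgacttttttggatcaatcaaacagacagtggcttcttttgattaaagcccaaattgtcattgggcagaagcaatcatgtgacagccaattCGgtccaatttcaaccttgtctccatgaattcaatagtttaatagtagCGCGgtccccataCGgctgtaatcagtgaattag
Hoxa5: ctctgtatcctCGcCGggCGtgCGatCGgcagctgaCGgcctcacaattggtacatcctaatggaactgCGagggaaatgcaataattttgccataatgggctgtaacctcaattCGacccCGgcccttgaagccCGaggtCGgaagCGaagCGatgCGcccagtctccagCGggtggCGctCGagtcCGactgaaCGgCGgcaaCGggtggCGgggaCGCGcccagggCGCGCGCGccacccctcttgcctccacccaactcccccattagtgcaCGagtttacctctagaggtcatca
Hoxd10: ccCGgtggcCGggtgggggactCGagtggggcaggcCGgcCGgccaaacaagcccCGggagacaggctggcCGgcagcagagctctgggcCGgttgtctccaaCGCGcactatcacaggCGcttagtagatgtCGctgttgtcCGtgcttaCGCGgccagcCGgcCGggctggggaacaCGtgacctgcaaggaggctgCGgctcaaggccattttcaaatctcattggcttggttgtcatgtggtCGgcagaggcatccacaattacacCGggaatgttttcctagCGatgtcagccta
Hoxa13: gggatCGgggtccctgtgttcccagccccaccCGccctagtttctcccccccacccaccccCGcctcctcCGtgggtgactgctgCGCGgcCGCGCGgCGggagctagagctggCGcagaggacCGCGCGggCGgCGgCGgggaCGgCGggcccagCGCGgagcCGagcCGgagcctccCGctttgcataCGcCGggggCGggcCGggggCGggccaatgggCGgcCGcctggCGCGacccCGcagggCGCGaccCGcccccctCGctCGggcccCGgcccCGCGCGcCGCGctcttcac

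The window of Hoxa2 (chr6:52164782-52165081, minus strand) held 9 CpG, fewer than the median of the Hox windows. That of Hoxa5 (chr6:52204538-52204837, minus strand) held 29, and that of Hoxd10 (chr2:74691641-74691940, plus strand) held 22. The window of Hoxa13 (chr6:52260831-52261130, minus strand) held 45, the highest count among the Hox windows. Among the highly expressed members, Hoxa7 had 9 and Hoxd8 had 6. High counts thus occurred both among silent and among expressed members, whereas counts of 9 or fewer occurred only among tested members. Hoxd12, without a read, had 13, and Hoxd1, with 2 reads at most, had 29. Of the other untested members, Hoxb1 had 10, Hoxd3 20 and Hoxd13 37.

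The members that were silent in control stayed near 0. Of the 6 untested genes, Hoxa13 had 2, 2 and 5 counts in Dnmt1Δ/Δep libraries, Hoxb1 3, 3 and 1, Hoxd1 0, 2 and 1, and Hoxd3 2, 0 and 4. Hoxd13 had 4, 0 and 14 counts in Dnmt1Δ/Δep against 0, 2 and 0 in control libraries. The 14 counts in Dnmt1Δ/Δep replicate 3, at 0.048 RPKM, were the highest of any untested member. The level of all 6 was below 0.05 RPKM in every library.

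Posterior members varied among the Dnmt1Δ/Δep libraries. In each of the 13 tested genes of paralogues 9 to 13, Dnmt1Δ/Δep replicates 1 and 3 were both above Dnmt1Δ/Δep replicate 2, which was so for 4 of the 20 tested genes of paralogues 1 to 8 and for 5381 of all 16829 tested genes. This split was noticed in these values and is a description. Hoxa11, a gene of the limb and uterus, was at 0.481, 0.283 and 0.342 RPKM in control and at 0.778, 0.364 and 0.793 RPKM in Dnmt1Δ/Δep replicates 1, 2 and 3. Hoxc9 was at 0.979, 0.621 and 0.674 RPKM in control and at 1.38, 0.899 and 1.41 RPKM in Dnmt1Δ/Δep libraries, and Hoxc10 at 2.38, 1.98 and 1.54 against 2.35, 1.84 and 3.21 RPKM. In all of these Dnmt1Δ/Δep replicate 2 lay within the range of the controls. Within the lanes of replicates 1, 2 and 3 the log2 ratios were 0.69, 0.37 and 1.21 for Hoxa11. They were 0.50, 0.54 and 1.06 for Hoxc9, and −0.02, −0.11 and 1.06 for Hoxc10.

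None of these posterior differences passed the test. The log2 fold change was 0.80 with a standard error of 0.38 for Hoxa11 (adjusted p = 0.26), 0.70 with 0.28 for Hoxc9 (adjusted p = 0.18) and 0.32 with 0.26 for Hoxc10 (adjusted p = 0.55). Hoxa11 shares 35.0% of its exons with its antisense gene Hoxa11os.

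Transcripts of fibroblasts, dermal cells that can be carried into keratinocyte cultures, split the Dnmt1Δ/Δep libraries in the same way. The 12 fibroblast markers summed to 43.0, 66.8 and 32.8 CPM in control and to 150, 42.2 and 159 CPM in Dnmt1Δ/Δep replicates 1, 2 and 3. All 12 were higher in Dnmt1Δ/Δep replicates 1 and 3 than in replicate 2, none was at 0, and 1 of the 12 was called higher, Fbn1, a microfibril gene, beside 6.03% of all tested genes. The median log2 fold change of the list was 1.22, and 5 of the 12 had an unadjusted p under 0.05, beside 23.6% of all tested genes. The levels did not run together throughout: relative to each gene's own mean over the 6 libraries, the median of the 13 posterior genes was 0.28 on the log2 scale in Dnmt1Δ/Δep replicate 3 but −0.04 in replicate 1, and 0.15 in control replicate 1. The part of these cells in the Hox values was not tested.

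**Figure D4:**
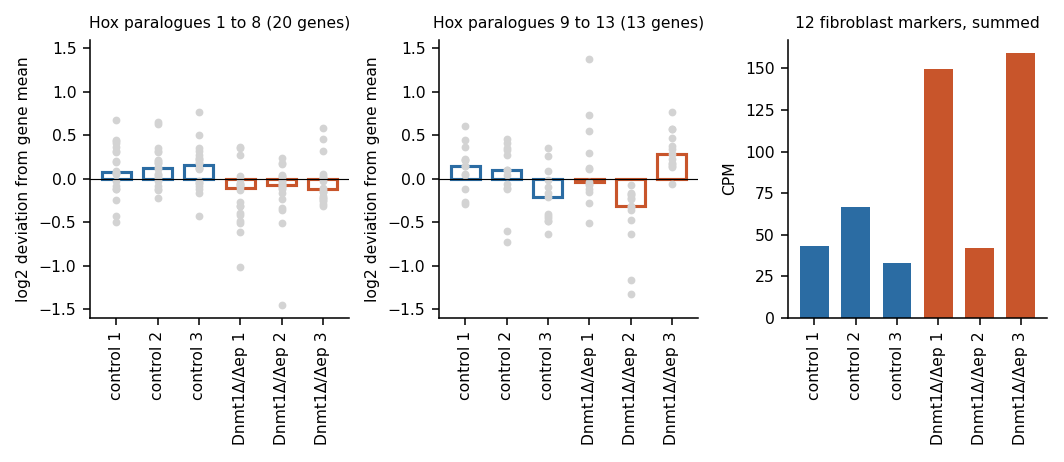
Log2 deviation of each tested Hox gene from its own mean over 6 libraries (grey points; open bars give the median) for paralogues 1 to 8 and 9 to 13, and the summed CPM of 12 fibroblast markers, for each library. The posterior median runs from −0.32 in Dnmt1Δ/Δep replicate 2 to 0.28 in Dnmt1Δ/Δep replicate 3, and the fibroblast sum from 42.2 to 159 CPM in the same libraries.

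The genes lower in every Dnmt1Δ/Δep library can be set beside the other markers. The 10 melanocyte markers summed to 233, 537 and 596 CPM in control and 716, 866 and 950 CPM in Dnmt1Δ/Δep libraries, with 0 of 10 called and 7 of 10 at an unadjusted p under 0.05 (edgeR), a level that 23.6% of all tested genes passed. The sum of the 12 keratinocyte markers was lower in Dnmt1Δ/Δep cells without overlap. Its 12 genes, all tested, had a median log2 fold change of −0.30, with 0 called by edgeR. At an unadjusted p under 0.05 there were 5, beside 23.6% of all tested genes, and 3 were lower at the adjusted p alone, beside 1.66%. Those 3 were Krt5, Krt14 and Col17a1, with log2 fold changes of −0.50, −0.61 and −0.55. Krt5 and Krt14 made up most of the sum, with means of 17880 and 9438 CPM in control and 12655 and 6183 CPM in Dnmt1Δ/Δep libraries. The other 9 members did not pass the adjusted p and pointed both ways: Krt1 and Krt10, keratins of the upper layers, had log2 fold changes of −2.30 and −1.58, Perp of −0.34 and Trp63 of −0.26, whereas Itgb4 and Itga6, of the basal layer, had 0.17 and 0.18, Sfn 0.06, Dsg3 0.02 and Cdh1 0.0009. Of the 6 Merkel cell markers, 2 were called higher, the simple keratins Krt8 and Krt18. Of the endothelial list 2 of 6 tested were called higher (Cdh5 and Pecam1), of the leukocyte list 3 of 4 tested (Csf1r, Itgam and S100a8), and of the muscle and nerve list 1 of 6 tested (Myh3), where 6.03% of all tested genes were called higher. The lists other than keratinocyte and melanocyte stayed at or below 159 CPM in every library. Their part in the Hox values was not tested.

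The clusters were also examined as stretches of chromatin. On GRCm38 they span chr6:52155590-52260880 (Hoxa), chr11:96194316-96368256 (Hoxb), chr15:102921103-103036852 (Hoxc) and chr2:74668310-74765142 (Hoxd). Of the 45 other annotated genes that start inside them (among them 16 miscellaneous RNA, 9 antisense and 6 micro RNA genes), 16 were tested and none was called in either direction by edgeR, with 1 at an unadjusted p under 0.05, beside 23.6% of all tested genes. That gene was Hoxaas2, an antisense RNA upstream of Hoxa2. It had 95, 58 and 35 reads in control and 22, 26 and 50 reads in Dnmt1Δ/Δep libraries (log2 fold change −1.04, adjusted p = 0.11). Hotairm1, another antisense RNA of the cluster, had a log2 fold change of −0.24 (adjusted p = 0.64).

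Outside the clusters, 24 protein-coding genes were the nearest 3 on each side, and 21 were tested. Ttll6, a tubulin glutamylase gene 28.9 kb from the Hoxb cluster, was the only one called, where 0.392% of all tested genes were called lower. It had 30, 27 and 11 reads in control and 0, 2 and 2 reads in Dnmt1Δ/Δep libraries (adjusted p = 0.0095, edgeR). Snx10, 565 kb from the Hoxa cluster, was higher at the adjusted p alone (log2 fold change 0.70, adjusted p = 0.020). The homeobox genes Evx1 and Evx2, which flank Hoxa and Hoxd, had at most 1 read in any library.

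Among genes that act with the Hox genes, none of the 9 TALE homeobox cofactors (the Pbx, Meis and Pknox families) was called in either direction by edgeR, with 3 at an unadjusted p under 0.05, beside 23.6% of all tested genes. Their median log2 fold change was −0.11. None of the 8 ParaHox and flanking homeobox genes was expressed enough to be tested, and Cdx1, Cdx4 and Gsx2 had no read.

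Polycomb proteins keep unused Hox genes silent and Trithorax proteins keep active ones on. Of 31 Polycomb genes, all tested, none was called in either direction by edgeR and the median log2 fold change was −0.07. At an unadjusted p under 0.05 there were 12, beside 23.6% of all tested genes, and at the adjusted p alone 4, beside 9.36%. Cbx7, Phc1 and Phc2, subunits of Polycomb repressive complex 1, were higher at the adjusted p alone, with log2 fold changes of 0.81, 0.64 and 0.56. Rbbp4, a histone-binding subunit shared by several complexes, was lower at −0.36. Of 12 Trithorax genes none was called (1 at an unadjusted p under 0.05, edgeR, beside 23.6% of all tested genes) and the median was −0.06.

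Calls were made among other genes of positional identity. Of 29 further positional transcription factors, 24 were tested, 3 were called higher and 1 lower, beside 6.03% and 0.392% of all tested genes, with a median log2 fold change of 0.14. Pitx1, a hindlimb gene, was at 1.24, 2.34 and 1.97 CPM in control and 7.62, 7.47 and 5.44 CPM in Dnmt1Δ/Δep libraries (log2 fold change 1.89, adjusted p = 0.0077). En1, which marks ventral limb ectoderm, and Tbx2, a limb margin gene, were called higher at log2 fold changes of 1.91 and 1.32. Irx2, an Iroquois homeobox gene, was called lower, from 93.4, 128 and 131 CPM to 53.9, 62.8 and 54.7 CPM (log2 fold change −1.04, adjusted p = 0.0069). Its neighbour in the family, Irx1, was lower at the adjusted p alone (log2 fold change −0.95, adjusted p = 0.0095).

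Retinoic acid is the classical inducer of anterior Hox genes. Of the 18 genes of its pathway, 15 were tested and 2 were called higher, beside 6.03% of all tested genes, with a median log2 fold change of 0.64. At the adjusted p alone there were 3, beside 9.36% of all tested genes (edgeR). An unadjusted p under 0.05 was reached by 8, beside 23.6%. Stra6, the receptor for retinol-binding protein, was at 0.571, 0.821 and 0.652 CPM in control and 7.87, 4.04 and 5.42 CPM in Dnmt1Δ/Δep libraries (log2 fold change 3.08, adjusted p = 0.0017). Aldh1a3, which makes retinoic acid, rose with a log2 fold change of 2.01 (adjusted p = 0.043). Rdh10 was higher at the adjusted p alone (log2 fold change 0.97, adjusted p = 0.013). Hoxa2 was lower in the same libraries, as given above, and no relation between these values was tested.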

How the data were processed

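Poly(A)-selected RNA of cultured keratinocytes was sequenced from 3 control and 3 Dnmt1Δ/Δep libraries, grouped by their labels. The authors trimmed adapters, removed ribosomal reads, aligned with STAR and counted unique reads with htseq-count in union mode. The deposited values are raw counts per Ensembl gene. The labels name GRCm38, whereas the text of the study names a human build, and the strand setting is not given in the sources used here, so reads of overlapping or antisense genes may be lost or mixed. The 5 entries that name no gene (8.73% to 12.9% of reads) were left out. The tables of the authors' own comparisons and the repeat counts were not used.

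Symbols and positions came from GENCODE M21 (42462 of 43629 identifiers matched). Counts were tested with edgeR 4.0.16 (R 4.3.3): TMM factors (0.980 to 1.02), filterByExpr with minimum counts of 10 and 15, quasi-likelihood test, Benjamini-Hochberg adjustment over all 16829 tested genes. The standard error of a log2 fold change is its size divided by the root of the F statistic. CPM use library size times TMM factor, and RPKM divide this by the union of exons. Sums over members are given as levels with their spread, without a test. On simulated data with 200 changed genes, 190 (95%) were recovered with 7 false calls. The simulated folds were larger than that of any tested Hox gene, and genes of low level were not changed. The 95% therefore does not measure how often changes of the size seen in Hox genes would be called.

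Values were given in full for called Hox genes, for highly expressed ones by the rule of the 10 highest mean RPKM, and for others named after their values were seen (Hoxa11, Hoxc9, Hoxc10, Hoxc12, Hoxd10 and the silent members); the rest are given by counts and ranges. Values of some genes that this rule names are not reported here. The members and all gene lists were chosen with earlier results of these data known. The replicate numbers pair the libraries: those with one number share a lane (3 lanes) in the headers of the count table, and their deviations from the group means correlated at 0.43, 0.28 and 0.30 for replicates 1, 2 and 3. The study's methods use no block, so the block was an alternative. Other alternatives were RLE and upper-quartile factors, DESeq2 1.42.0, other filters, other gene lengths and leaving libraries out.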

Additional observations from a re-analysis of the deposited data

How the results depend on the processing

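The absence of higher Hox calls held under all alternatives tried. The call of Hoxa2 held under RLE and upper-quartile factors, DESeq2, both other filters and the replicate block, and was lost in 5 of the 6 fits that left out one library, so that the count of lower Hox genes ran from 0 to 1. The count at the adjusted p alone, 2, was 4 with DESeq2 and 0 to 3 without one library. Over all genes, 1014 were called higher and 66 lower. These counts were 395 and 35 with a minimum of 1 RPKM, the lower count was 107 with no filter and 122 with DESeq2, and without one library they ran from 559 to 1183 and from 15 to 180. With the replicate block they were 1173 and 95, and no call of a Hox gene changed. A further alternative, chosen after the data were seen, left out Dnmt1Δ/Δep replicates 1 and 3, with the lone library assumed to vary like the controls. It gave 167 higher and 4 lower genes, and 0 lower Hox genes at either threshold. The median log2 fold change of the tested Hox genes was then −0.20, and it ran from −0.17 to −0.058 without one library. Since posterior members were higher in the libraries left out, a fall of their values there was fixed by that choice and is no test. Several members that were not called changed sign: Hoxa3 (0.21), Hoxa4 (0.15), Hoxa10 (−0.23), Hoxa11 (−0.013), Hoxb13 (−1.22), Hoxc10 (−0.098), Hoxc11 (−0.19) and Hoxd8 (−0.33). Without one library each, the log2 fold change ran for Hoxa3 from −0.22 to 0.10, Hoxa4 from −0.17 to 0.087, Hoxa6 from −0.54 to 0.015, Hoxa9 from −0.15 to 0.039, Hoxb4 from −0.16 to 0.16, Hoxb5 from −0.37 to 0.011, Hoxb6 from −0.017 to 0.23, Hoxb7 from −0.079 to 0.20, Hoxb8 from −0.18 to 0.15, Hoxb9 from −0.23 to 0.16, Hoxb13 from −0.052 to 0.98, Hoxc4 from −0.29 to 0.010, Hoxc11 from −0.020 to 0.18, Hoxd8 from −0.14 to 0.32 and Hoxd9 from −0.28 to 0.13. For Hoxb8 it was −0.0047 with RLE, −0.0074 with DESeq2 and −0.012 with no filter. With the longest transcript as gene length, the summed Hox level was 111 RPKM in control and 101 RPKM in Dnmt1Δ/Δep. Without one library it ran from 95.8 to 99.1 RPKM in control and from 85.5 to 89.3 RPKM in Dnmt1Δ/Δep. Depth limits the silent members, which had at most 14 reads.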
